A study of Homo sapiens with 9 samples.

Results

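The genes described here encode the receptors for glutamate and GABA, the main excitatory and inhibitory transmitters of the brain, measured by RNA sequencing in HUES9 human embryonic stem cells. They were chosen by symbol, as every row of the count table named GABRA, GABRB, GABRG, GABRD, GABRE, GABRQ or GABRR, GABBR, GRIA, GRIK, GRIN, GRID or GRM, which gave 50 of 27730 symbols. Of these, 46 encode receptor subunits, namely 18 GABA-A, 2 GABA-B, 4 AMPA, 5 kainate, 7 NMDA, 2 delta and 8 metabotropic glutamate receptor genes. The other 4 met the symbol rule without being subunits. GRID2IP had 1, 3 and 7 reads in AA147 libraries, 5, 9 and 9 in RP22 libraries and 7, 14 and 6 in day 1 libraries, and GRID1-AS1, GRIK1-AS1 and GRIK1-AS2, which are antisense transcripts, had no read in any library.

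The study set cells at day 13 of differentiation with 10 µM AA147, a small molecule that the labels name as an activator of the transcription factor ATF6, against cells at day 13 with 10 µM RP22, which the labels name as the inactive analogue of AA147, and both against untreated cells at day 1. Each group had 3 libraries, which the labels describe as independent experiments. All groups come from the same cell line, grown with FGF2 on mitomycin-treated mouse embryonic fibroblasts as feeders, and the cells were used at passages 44 to 46. Embryoid bodies were spun from the cells without FGF2, kept in suspension, and plated on Matrigel. Both compounds came from stocks in DMSO and were renewed with the medium every day. None of the 9 samples of the study had DMSO alone. RP22 is thus the day 13 comparison, and day 1 differs from both day 13 groups in compound, solvent and time together. The labels name no structure for either compound.

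Receptors for glutamate are of 2 kinds. AMPA, kainate and NMDA receptors are tetrameric cation channels, and the delta receptors share their build but organise synapses, whereas the metabotropic receptors signal through G proteins. GABA-A receptors are pentameric chloride channels assembled from alpha, beta, gamma and rarer subunits, and GABA-B receptors are G protein-coupled dimers of GABBR1 and GABBR2. Many of these genes are also transcribed outside mature neurons, in progenitors and in embryonic stem cells, and several are known targets of REST, the repressor that silences neuronal genes through the RE1 element. ATF6, the factor that AA147 is labelled to activate, binds the endoplasmic reticulum stress elements ERSE and ERSE-II and the related UPRE.

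The promoters of GRIA2 and GRM2 are shown because these genes had 1 read and 0 reads in all AA147 libraries together, and because each window holds the letters of an RE1. Both windows run from 250 bases before to 50 bases after the annotated start in RefSeq on build GRCh38.p14, on the plus strand. The capitals mark the match in each window.
GRIA2, chr4:157220369-157220668: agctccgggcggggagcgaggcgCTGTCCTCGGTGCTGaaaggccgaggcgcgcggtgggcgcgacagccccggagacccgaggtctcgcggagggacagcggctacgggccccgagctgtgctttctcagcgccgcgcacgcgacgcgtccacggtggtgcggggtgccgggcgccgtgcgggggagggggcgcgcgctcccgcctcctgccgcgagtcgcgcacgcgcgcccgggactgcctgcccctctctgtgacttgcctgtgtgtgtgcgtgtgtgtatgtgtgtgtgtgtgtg
GRM2, chr3:51706818-51707117: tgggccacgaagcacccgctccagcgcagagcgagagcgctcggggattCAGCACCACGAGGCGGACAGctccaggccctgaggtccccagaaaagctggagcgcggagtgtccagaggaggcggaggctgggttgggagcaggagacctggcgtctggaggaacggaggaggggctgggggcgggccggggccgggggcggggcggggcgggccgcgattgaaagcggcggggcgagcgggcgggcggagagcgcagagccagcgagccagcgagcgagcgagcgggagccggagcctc
In GRIA2 the capitals start 227 bases before the transcription start and read, on the opposite strand, CAGCACC and GGACAG with 2 bases between them, the RE1 with its usual spacing. In GRM2 they start 201 bases before the start and read the same blocks with 7 bases between them, a form that was searched for after the GRM2 sequence had been seen. Both strands were searched in every promoter window. The usual form was in 18 of 35116 windows of all genes, or 0.0513%, and in 1 of the 55 windows of the receptor genes, or 1.82%, and the wide form was in 6 windows, or 0.0171%, and in 1 of the 55. Neither form was found for GRIK3, GRIN3A or GRM3, which also had 1 read each over the AA147 libraries. The ERSE letters, CCAAT and CCACG with 9 bases between them, were in 0.0769% of all windows and in 0 of the 55. The ERSE-II letters, ATTGG and CCACG with 1 base between them, were in 0.0541% of all windows and in 0 of the 55. The UPRE letters TGACGTGG were in 0.729% of all windows and in 1 of the 55, that of GRIN2B. The 55 windows belong to 37 of the 50 genes, and the genes without one include GABRA3, GABRA5, GABRD, GRIA3, GRID1, GRIK1, GRIN1 and GRIN2C. A match describes the letters in the window and not the binding of a factor.

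Library totals ranged from 9223027 to 10118258 reads, so that raw reads of a gene differ little through depth alone. Raw reads nevertheless place AA147 lower than TMM, the scaling used in the tests, does. When only library totals were used, the middle gene tested lay at −0.49 (log2) for AA147 over RP22, against −0.03 with TMM. For AA147 over day 1 these values were −0.48 and −0.04. Small differences in raw reads between AA147 and another group are therefore not read as differences in level. The 10 most abundant genes took 8.06% to 8.98% of the reads in AA147 libraries, 2.45% to 4.48% in RP22 libraries and 2.31% to 2.41% in day 1 libraries. Replicate 1 of RP22 stood apart from the other RP22 libraries. Of the 29 subunits with at least 30 reads over the RP22 libraries, it had the lowest value in 17, the highest in 7 and the middle one in 5. Its neural crest and Schwann precursor markers summed to 1008 CPM (counts scaled to library size), against 513.5 and 538.7 CPM in the others, and its neural progenitor markers to 864.7 CPM, against 1432 and 1361 CPM. Results for named receptor and partner genes that moved by over 1.5-fold or lost their call without it are given with and without it below. The groups were compared by edgeR's quasi-likelihood test on all genes that passed its count filter, with Benjamini-Hochberg adjustment over all of them and a threshold of 0.05 on the adjusted p.

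**Figure D1:**
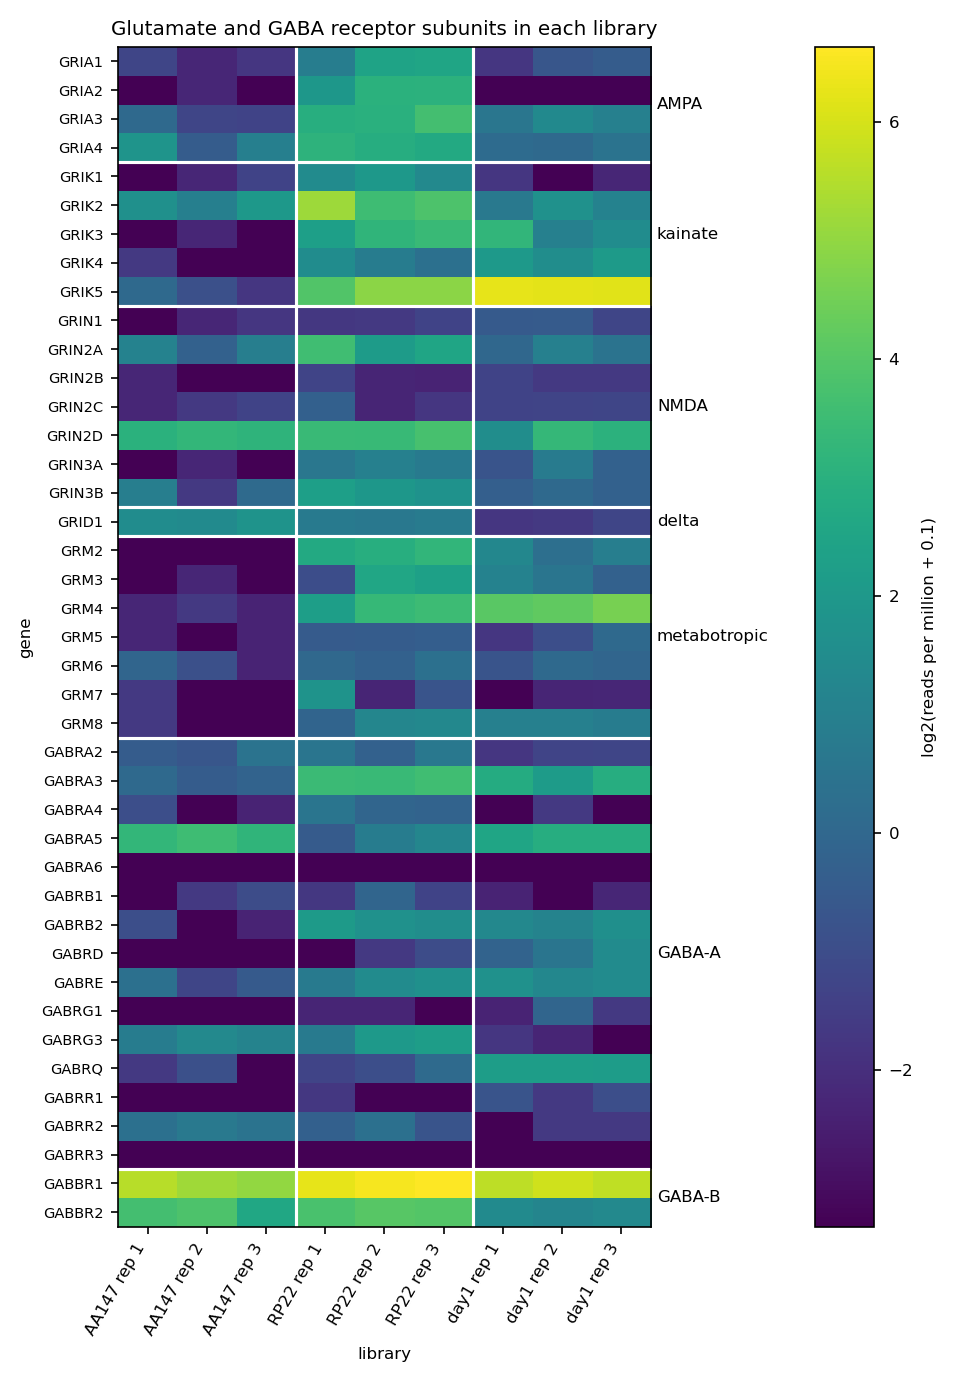
Level of 41 receptor subunits (rows, by class) in each of the 9 libraries (columns: AA147, RP22, day 1), as log2 of CPM plus 0.1. The lowest colour marks 0 reads, as for GRM2 in the 3 AA147 libraries, and for GABRR3 in all libraries.

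AA147 cells carried fewer transcripts of the 46 subunits that the symbol rule picks than RP22 or day 1 cells. GABRP, a GABA-A subunit outside that rule and described further on, had more reads with AA147 than all of these together. Together the 46 subunits had 143.6, 123.5 and 110 CPM in AA147 libraries, 283.5, 332.3 and 364.8 in RP22 libraries, and 461.5, 540 and 542.4 in day 1 libraries, and these ranges did not overlap. Between 28 and 31 subunits had any read in an AA147 library, against 41 to 42 in an RP22 library and 40 to 41 in a day 1 library. At least 10 reads were reached by 9 to 13 subunits with AA147, by 27 to 30 with RP22 and by 21 or 22 at day 1. In bulk RNA, fewer cells of a type and less RNA per cell cannot be told apart.

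Against RP22, 27 of the 46 subunits passed the count filter, and AA147 cells had lower levels of 19, higher levels of 3 (GABRA5, GRID1 and GABRR2), and 5 that did not pass the test (among them GABBR2, GABRA2, GABRG3 and GRIN2D). Over the 14293 genes tested, 32.2% were lower and 29.8% higher with AA147 (62.0% in either direction). The median log2 fold change was −2.37 over the 27 subunits, with GRM2 at its bound or at its fitted value, and −0.03 over all genes tested. Of the 27 tested, 13 were called lower and at least 8-fold lower by the fitted fold, as were 6.42% of all genes tested. Without any filter, 43 subunits had a read in either group, and in 24 of them, or 55.81%, every AA147 library was below every RP22 library, against 34.5% of all genes with a read. Every AA147 library was above every RP22 library in 3, against 27.1% of all genes with a read. The subunits that passed the filter include those that passed it only through their RP22 reads, so their count and median describe those 27 and not all 46. Without replicate 1 of RP22, 20 subunits were lower and 2 higher. Scaling by library totals alone in place of TMM moved the median of all genes to −0.49 and the share of calls that were higher to 18.2%, against 48.1% with TMM, and gave 19 subunits lower and 2 higher.

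Against day 1, AA147 cells had higher levels of 6 and lower levels of 13 of 23 subunits tested, beside 38.7% and 40.4% of all genes tested (79.1% in either direction). Of the 23 tested, 9 were called lower and at least 8-fold lower by the fitted fold, as were 5.56% of all genes tested. Some of the 23, such as GRM2, passed the filter only through their day 1 reads, so their counts and median describe those 23. Without any filter, every AA147 library was below every day 1 library in 52.27% of subunits with a read, against 36.8% of all such genes. Every AA147 library was above in 15.91%, against 34.0%. In RP22 cells 14 of 28 were higher and 7 lower than at day 1, beside 36.6% and 35.2% of all genes (71.9% in either direction). Of the 28 tested, 2 were called lower and at least 8-fold lower, as were 1.03% of all genes tested. Some of the 28, such as GRIA2, passed the filter only through their RP22 reads. The median log2 fold change was −1.52 for AA147 over day 1 and 0.74 for RP22 over day 1, with −0.04 and 0.02 over all genes tested. Both comparisons use the same day 1 libraries. With library totals alone, the median of all genes for AA147 over day 1 was −0.48, the share of calls that were higher was 34.3%, against 48.9% with TMM, and 5 subunits were higher and 14 lower. For RP22 over day 1 that median was 0.12, with 14 subunits higher and 7 lower. For the 43 subunits with at least 10 reads in all, group means of CPM without TMM scaling were ranked. The highest was in AA147 for 3, in RP22 for 25 and in day 1 for 15. The lowest was in AA147 for 27, in RP22 for 1 and in day 1 for 15. GRIK5, GRIK4 and GRM4 were lower in AA147 than in RP22 and lower in both than at day 1, GRID1 was higher in AA147 than in RP22 and higher in both than at day 1, and GABRA3, GRIA3 and GRM2 were higher with RP22 and lower with AA147 than at day 1.

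**Figure D2:**
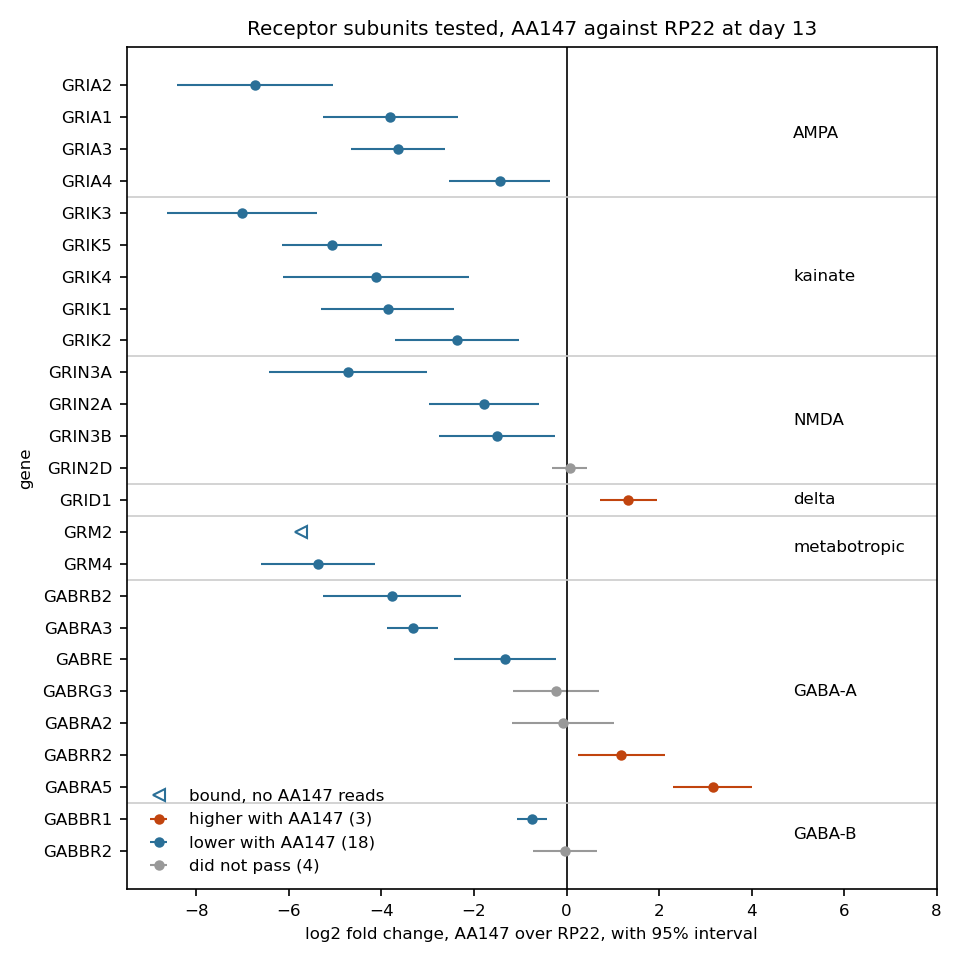
Log2 fold change of AA147 over RP22 (x axis, with 95% interval) for 25 of the 27 subunits that passed the count filter, ordered by class. Blue points are 18 that were lower, red-brown the 3 that were higher, grey 4 that did not pass the test, and the open triangle places GRM2 at its bound of at least 53.8-fold lower, since it had no read with AA147.

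Most of the neural cell markers tested were lower with AA147 than with RP22, as were most of the receptor subunits tested. Against day 1 the direction was not always shared. The receptor subunits summed to 461.5 to 542.4 CPM at day 1 and to 283.5 to 364.8 CPM with RP22. These sums are weighted to the most abundant subunits. Gene by gene, 14 of 28 subunits tested were higher with RP22 than at day 1 and 7 lower. Sums of neuron and neural crest markers were lower at day 1 than with RP22, while those of neural progenitor markers were higher. Gene by gene, 4 of 9 progenitor markers tested were higher with RP22 than at day 1 and 3 lower. The progenitor list shares SOX2 with the pluripotency list. Of 10 neuron markers, 8 were lower with AA147 than with RP22, TUBB3 was higher (log2 fold change 0.36, adjusted p = 0.039, edgeR) and SYT1 was not called. Their summed level was 419.4 to 444.2 CPM with AA147, 1178 to 1510 CPM with RP22 and 296.3 to 346.7 CPM at day 1. TUBB3 made up most of each AA147 sum. It had 3173, 3190 and 3665 reads with AA147, 2786, 4032 and 4112 with RP22 and 1719, 1485 and 1607 at day 1. Raw reads of TUBB3 thus overlapped between AA147 and RP22, and its call was made after TMM scaling. The sums thus do not show the other neuron markers above day 1 with AA147. No neuron marker was at 0 in all AA147 libraries, and the neuronal RNA-binding protein gene ELAVL4 had 1, 0 and 0 reads in them, against 614, 1060 and 1029 in RP22 libraries. Of 10 neural progenitor markers, 8 were tested and 7 were lower, with sums of 550 to 751.6 CPM with AA147, 864.7 to 1432 CPM with RP22 and 1866 to 1953 CPM at day 1. NES, the marker that was not called, made up most of the AA147 sums, and the other 9 summed to 1.99 to 4.19 CPM with AA147, 195.9 to 642.3 CPM with RP22 and 1011 to 1085 CPM at day 1, where FABP7 and HES5 had no read with AA147. The 7 neural crest and Schwann precursor markers were all lower, at 73.51 to 102.8 CPM with AA147, 513.5 to 1008 CPM with RP22 and 234.3 to 311.3 CPM at day 1, with FOXD3 at 0 with AA147. Pluripotency markers summed to 82.07 to 101.2 CPM with AA147, 356.8 to 687.7 CPM with RP22 and 5985 to 6639 CPM at day 1, 5 of 6 tested were lower with AA147 than with RP22, and NANOG had no read with AA147. Mesenchyme markers were higher with AA147 in 4 of 7, at 46320 to 55240 CPM with AA147, 13470 to 29400 CPM with RP22 and 748.6 to 835.9 CPM at day 1. Smooth muscle markers were higher with AA147 in 5 of 6, at 4878 to 5275 CPM with AA147, 1193 to 1435 CPM with RP22 and 379.3 to 419.3 CPM at day 1. Without replicate 1 of RP22, whose mesenchyme sum was the 29400 CPM, the others being 13470 and 14040, 6 of 7 mesenchyme markers were higher with AA147, and 9 of 10 progenitor and 6 of 7 pluripotency markers were lower. Of the other lists, trophoblast markers were higher with AA147 than with RP22 in 2 and lower in 4 of 6, astrocyte markers higher in 1 and lower in 2 of 3 tested, and endothelial and hepatic or yolk sac markers lower in 4 of 4 tested each (3 of 4 endothelial without replicate 1 of RP22), with ALDH1L1, PECAM1 and TTR at 0 reads with AA147. The part of these cell types in the receptor results was not tested.

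The AMPA receptor subunits, which form the channels of fast excitatory transmission, were all lower with AA147 than with RP22, and all 4 were higher with RP22 than at day 1. GRIA2, whose edited form makes the channel nearly impermeable to calcium, had 0, 1 and 0 reads in AA147 libraries, 36, 76 and 85 in RP22 libraries and none in any day 1 library. It was thus detected at more than 1 read in RP22 libraries only, and its ratio of RP22 over AA147 was 141 with a 95% counting interval of 25.1 to 5610 (adjusted p = 0.00015, edgeR). Against day 1, RP22 cells had at least 60.6-fold higher GRIA2 (adjusted p = 0.00016, edgeR), from a floor of 3 reads over the day 1 libraries. GRIA1 had 3, 1 and 2 reads with AA147, 17, 50 and 57 with RP22 and 2, 5 and 6 at day 1. Its log2 fold change was −3.81 ± 0.63 (SE, n = 3 each) for AA147 over RP22 (adjusted p = 0.0012, edgeR) and 3.08 ± 0.57 for RP22 over day 1 (adjusted p = 0.0014). AA147 and day 1 libraries overlapped for GRIA1, while every RP22 library was above them.

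GRIA3 had 9, 3 and 3 reads with AA147, 72, 73 and 125 with RP22 and 14, 24 and 18 at day 1, with no overlap between any of the groups. It fell by 3.65 ± 0.44 (SE) on the log2 scale with AA147 relative to RP22 (adjusted p = 0.00025, edgeR), and its log2 fold change of RP22 over day 1 was 2.13 ± 0.31 (adjusted p = 0.00037). GRIA4 had 32, 6 and 19 reads with AA147, 82, 68 and 66 with RP22 and 10, 9 and 12 at day 1. The AA147 libraries of GRIA4 lay below those of RP22 (log2 fold change −1.45 ± 0.47, adjusted p = 0.028, edgeR) but overlapped those of day 1, and RP22 was 2.68 ± 0.27 above day 1 (adjusted p = 5.3e-05). Against day 1, the log2 fold change with AA147 was −1.44 ± 0.49 for GRIA3 (adjusted p = 0.023, edgeR) and 1.31 ± 0.53 for GRIA4 (adjusted p = 0.045). By RPKM (reads scaled to gene length and depth), GRIA3 made up 16.76% to 31.97% of the AMPA subunits with AA147, 36.82% to 45.12% with RP22 and 65.27% to 80.6% at day 1. GRIA4 made up 56.49% to 76.3% with AA147, 20.31% to 41.48% with RP22 and 14.1% to 30.28% at day 1. The AA147 shares rest on few reads, with 44, 11 and 24 AMPA subunit reads in the libraries.

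The calls on GRIA3 and GRIA4 that rest on few reads depended on single libraries. GRIA4 of AA147 over RP22 was not called without replicate 3 of AA147 (adjusted p = 0.091), replicate 2 of RP22 (0.064) or replicate 3 of RP22 (0.052), over a range of 6.6e-05 to 0.091 in 14 alternatives, and its log2 fold change was −2.05 without replicate 1 of AA147. GRIA3 of AA147 over RP22 was −4.37 without replicate 1 of AA147 and −4.48 without replicate 1 of both groups, where GRIA1 was −4.55. Against day 1, GRIA3 with AA147 was not called by DESeq2 (0.066) or without replicate 2 (0.085) or 3 (0.09) of AA147 or replicate 2 (0.081) or 3 (0.055) of day 1, over a range of 0.0011 to 0.09, and its log2 fold change was −2.14 without replicate 1 of AA147 and −2.34 without replicate 1 of both groups. GRIA4 with AA147 against day 1 lost its call in 10 of 14 alternatives, with adjusted p up to 0.26 and down to 0.0048, and its log2 fold change was 0.66 without replicate 1 of both groups.

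**Figure D3:**
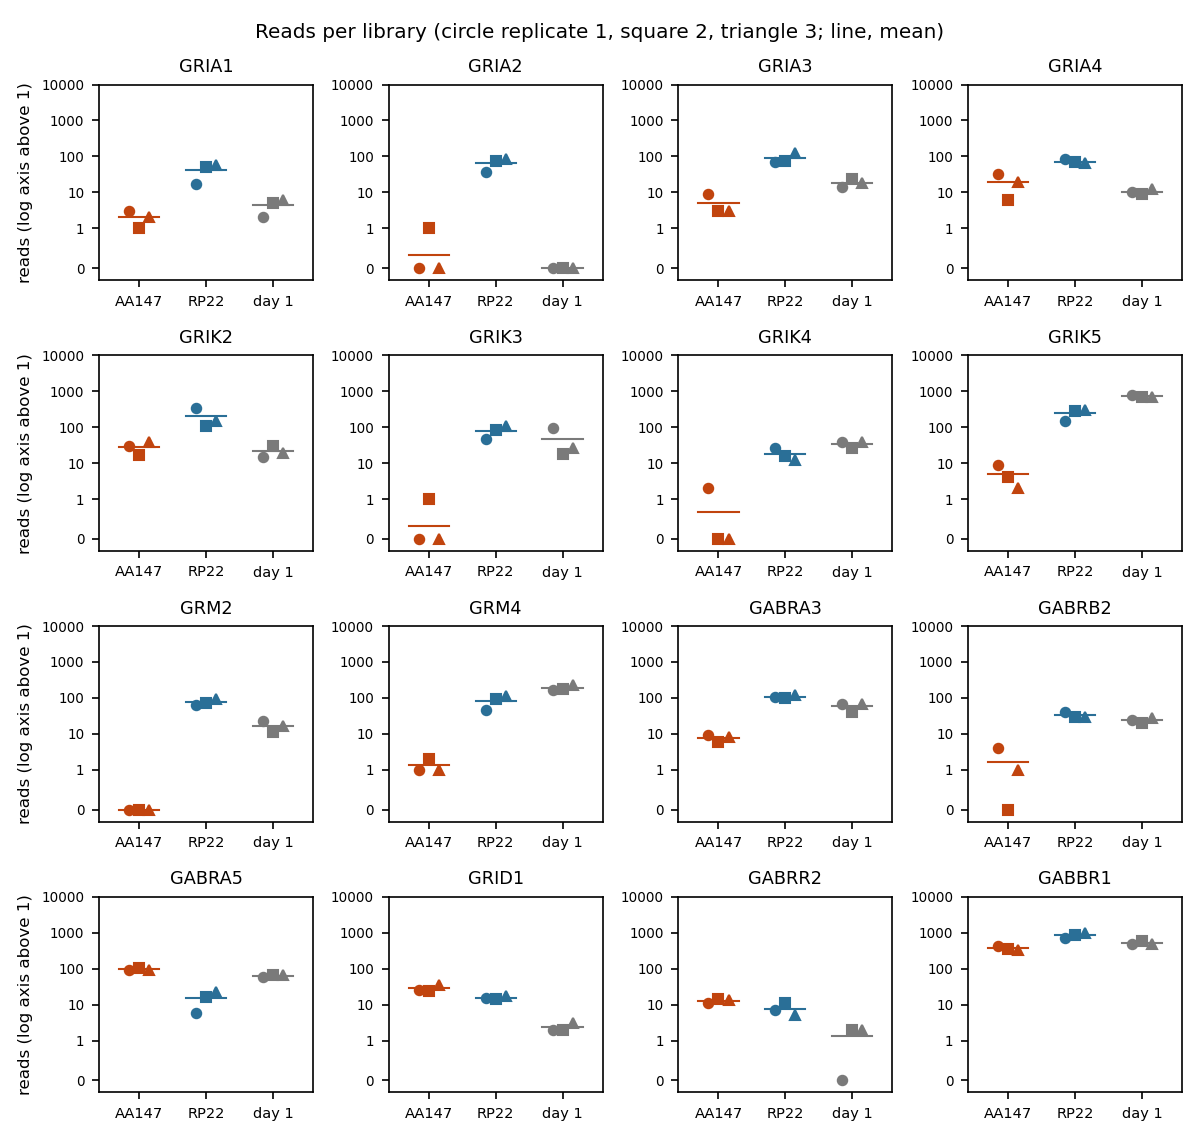
Reads per library for 16 receptor subunits in AA147, RP22 and day 1 cells (log axis above 1 read, linear below, points are libraries and lines are group means). GRIA2, GRIK3 and GRM2 had 0 or 1 read in every AA147 library, while all AA147 points of GABRA5 and GRID1 lie above all RP22 and day 1 points.

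All 5 kainate receptor subunits were lower with AA147 than with RP22, and GRIK4 and GRIK5, the subunits that need a partner to form a channel, were also lower with RP22 than at day 1. GRIK5 was the main kainate transcript at day 1. It had 9, 4 and 2 reads with AA147, 147, 275 and 299 with RP22 and 770, 709 and 683 at day 1, so that the 3 groups lay apart from each other. Its log2 fold change was −5.07 ± 0.46 (SE, n = 3 each) for AA147 over RP22 (adjusted p = 9.9e-05, edgeR), −6.69 ± 0.23 for AA147 over day 1 (adjusted p = 1e-08) and −1.71 ± 0.21 for RP22 over day 1 (adjusted p = 0.00027). Without replicate 1 of AA147 the first of these was −5.78 and the second −7.40, and without replicate 1 of both groups they were −6.02 and −7.38. GRIK4 had 2, 0 and 0 reads with AA147, 27, 16 and 12 with RP22 and 39, 27 and 39 at day 1. The ratio of RP22 over AA147 was 19.7 for GRIK4, with a 95% counting interval of 5.2 to 167 (adjusted p = 0.0041, edgeR), and that of day 1 over AA147 was 38.5, from 10.4 to 322.

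GRIK4 was lower with RP22 than at day 1 by a log2 fold change of −1.03 ± 0.37 (adjusted p = 0.035, edgeR), a call that was lost in 6 of 14 alternatives. These were DESeq2 (0.065), all 9 libraries in one fit (0.055), and leaving out replicate 2 (0.1) or 3 (0.11) of RP22 or replicate 1 (0.08) or 3 (0.11) of day 1, and the adjusted p of GRIK4 ranged from 0.00053 to 0.11. GRIK1, GRIK2 and GRIK3 encode the subunits that form channels on their own. GRIK3 had 0, 1 and 0 reads with AA147, 46, 84 and 109 with RP22 and 92, 18 and 26 at day 1. Every AA147 library of GRIK3 was below all others, with a ratio of RP22 over AA147 of 171 (95% counting interval 30.5 to 6790, adjusted p = 0.0001, edgeR) and of day 1 over AA147 of 99.8 (17.6 to 3970, adjusted p = 0.0014). RP22 and day 1 overlapped for GRIK3, and their difference did not pass the test (log2 fold change 0.70, adjusted p = 0.33). It did without replicate 1 of day 1, the library with 92 reads (adjusted p = 0.0072, range 2e-08 to 0.61 over the alternatives).

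GRIK1 had 0, 1 and 3 reads with AA147, 26, 36 and 25 with RP22 and 2, 0 and 1 at day 1. Reads of GRIK1 were thus near 0 outside RP22, and its log2 fold change of AA147 over RP22 was −3.87 ± 0.62 (adjusted p = 0.001, edgeR), or −5.08 without replicate 3 of AA147. The ratio of RP22 over day 1 was 26.8, with a 95% counting interval of 8.86 to 132. GRIK2 had 29, 17 and 39 reads with AA147, 348, 108 and 147 with RP22 and 15, 30 and 19 at day 1. Its AA147 and day 1 libraries overlapped (log2 fold change 0.84, adjusted p = 0.063, edgeR), and it passed the test without replicate 2 of AA147 (0.029) or of day 1 (0.028), over a range of 0.028 to 0.34. All RP22 libraries of GRIK2 were higher, with a log2 fold change of −2.37 ± 0.56 for AA147 over RP22 (adjusted p = 0.01) and 3.13 ± 0.56 for RP22 over day 1 (adjusted p = 0.0022). Replicate 1 of RP22 had 2.77 times the mean CPM of the other 2 for GRIK2, and without it the 2 log2 fold changes were −1.64 and 2.41, or −1.67 and 2.19 without replicate 1 of both groups. By RPKM, GRIK2 made up 72.76% to 87.79% of the kainate subunits with AA147, 26.04% to 65.33% with RP22 and 1.89% to 4.2% at day 1. GRIK5 made up 4.13% to 22.53% with AA147, 23.25% to 54.85% with RP22 and 89.79% to 92.24% at day 1. The AA147 shares rest on 40, 23 and 44 kainate subunit reads in the libraries.

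NMDA receptors need GRIN1, the obligatory subunit, and GRIN1 was near 0 in every group, with 0, 1 and 2 reads with AA147, 2, 2 and 3 with RP22 and 6, 6 and 3 at day 1. Of the 4 NMDA subunits tested, 3 were lower with AA147 than with RP22. GRIN2D, a glutamate-binding subunit known from the developing brain, had the most reads, with 76, 89 and 88 with AA147, 104, 98 and 135 with RP22 and 28, 92 and 78 at day 1. It did not pass the test for AA147 over RP22 (log2 fold change 0.07, 95% interval −0.30 to 0.45, adjusted p = 0.72, edgeR), and with library totals alone its log2 fold change was −0.38. For AA147 over day 1 GRIN2D did not pass (0.79, adjusted p = 0.091), but did in 5 of 14 alternatives, among them DESeq2 (0.049), limma-voom (0.043) and without replicate 2 of day 1 (0.039), over a range of 0.029 to 0.42. GRIN2A had 19, 7 and 18 reads with AA147, 113, 40 and 57 with RP22 and 9, 18 and 12 at day 1. Its RP22 libraries were the highest, with a log2 fold change of −1.79 ± 0.51 (SE, n = 3 each) for AA147 over RP22 (adjusted p = 0.017, edgeR) and 2.31 ± 0.49 for RP22 over day 1 (adjusted p = 0.003).

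Replicate 1 of RP22 had 2.36 times the mean CPM of the other 2 for GRIN2A, and without it the log2 fold change of AA147 over RP22 was −1.19 (adjusted p = 0.019), while without replicate 2 of AA147 it was not called (0.06), over a range of 0.0016 to 0.06. Without replicate 1 of both groups GRIN2A was 1.501 for RP22 over day 1. GRIN3A and GRIN3B bind glycine and lower the calcium flow of the channel. GRIN3A had 0, 1 and 0 reads with AA147, 14, 18 and 16 with RP22 and 5, 16 and 7 at day 1, a ratio of RP22 over AA147 of 34.4 (95% counting interval 5.89 to 1390, adjusted p = 0.0009, edgeR). GRIN3A was below all other libraries in each AA147 library, and RP22 over day 1 did not pass (adjusted p = 0.23), save without replicate 2 of day 1 (0.034, range 0.034 to 0.53). GRIN3B had 17, 2 and 10 reads with AA147, 47, 35 and 33 with RP22 and 7, 9 and 7 at day 1. For GRIN3B the RP22 libraries were the highest (AA147 over RP22 −1.51 ± 0.54, adjusted p = 0.04, and RP22 over day 1 2.20 ± 0.32, adjusted p = 0.00041), and the first call was lost without replicate 2 (0.069) or 3 (0.11) of AA147 or without replicate 1 (0.065), 2 (0.081) or 3 (0.065) of RP22, within a range of 0.00084 to 0.11. Its log2 fold change was −2.19 without replicate 1 of AA147. Exons of GRIN3B overlap those of TMEM259 on the other strand over 85 bases, or 2.59% of its exon bases. TMEM259 had far more reads, 3944 over the AA147 libraries, 4910 with RP22 and 4032 at day 1. The labels do not say whether the counting used strand, so reads in the overlap cannot be told apart. GRIN2B and GRIN2C had at most 7 reads in any library.

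GRID1, a delta receptor, which binds cerebellins, was higher with AA147 than with RP22. It had 26, 24 and 34 reads with AA147, 15, 14 and 17 with RP22 and 2, 2 and 3 at day 1. It was higher in each AA147 library than in any RP22 library, and higher in each of these than at day 1. GRID1 had log2 fold changes of 1.34 ± 0.26 for AA147 over RP22 (adjusted p = 0.003, edgeR), 3.94 ± 0.39 for AA147 over day 1 (adjusted p = 9.1e-06) and 2.54 ± 0.40 for RP22 over day 1 (adjusted p = 0.00062), and none of these calls was lost in 14 alternatives.

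Metabotropic glutamate receptors had few reads with AA147. The 8 genes summed to 0.23 ± 0.12 RPKM with AA147, 6.99 ± 1.99 with RP22 and 7.26 ± 0.88 at day 1 (SD, n = 3 each). GRM2 and GRM3 form group II, which couples to inhibitory G proteins. GRM2 had no read in any AA147 library, 62, 70 and 93 with RP22 and 23, 11 and 17 at day 1. From a floor of 3 reads over the AA147 libraries, GRM2 was at least 53.8-fold lower with AA147 than with RP22 (adjusted p = 9.6e-05, edgeR) and at least 12.5-fold lower than at day 1 (adjusted p = 0.00046), and its log2 fold change of RP22 over day 1 was 2.01 ± 0.30 (adjusted p = 4e-04). GRM3 had 0, 1 and 0 reads with AA147, 4, 54 and 50 with RP22 and 20, 13 and 7 at day 1. It missed the count filter for AA147 over RP22, where the ratio of RP22 over AA147 was 77.4 (95% counting interval 13.6 to 3090). The 4 reads of GRM3 in replicate 1 of RP22 are 0.077 of the mean CPM of the other 2, and GRM3 of RP22 over day 1 passed the test without that library (adjusted p = 0.0015) but not with it (0.19, range 6.3e-07 to 0.51).

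GRM4, GRM6, GRM7 and GRM8 form group III, also coupled to inhibitory G proteins. GRM4 had 1, 2 and 1 reads with AA147, 45, 93 and 114 with RP22 and 167, 173 and 225 at day 1. All 3 groups of GRM4 lay apart, with log2 fold changes of −5.38 ± 0.53 for AA147 over RP22 (adjusted p = 0.0001, edgeR), −6.59 ± 0.34 for AA147 over day 1 (adjusted p = 1.2e-07) and −1.30 ± 0.30 for RP22 over day 1 (adjusted p = 0.0051). GRM8 had 2, 0 and 0 reads with AA147, 8, 21 and 24 with RP22 and 19, 18 and 16 at day 1, which gave a ratio of day 1 over AA147 of 19.5 (95% counting interval 5.13 to 165, adjusted p = 0.00052, edgeR) and of RP22 over AA147 of 19.0 (5.01 to 161, not tested). GRM7 had 2, 0 and 0 reads with AA147, 32, 1 and 5 with RP22 and 0, 1 and 1 at day 1, so that replicate 1 of RP22 held most of its reads. GRM6, a receptor of retinal bipolar cells, had at most 12 reads in a library. The group I receptor GRM5, which raises calcium through phospholipase C, had at most 9. The ratio of RP22 over AA147 was 6.81 for GRM5 (1.64 to 60.3). Without the count filter GRM3 (adjusted p = 0.011, edgeR), GRM5 (0.023) and GRM8 (0.0044) were also called lower with AA147 than with RP22. Exons of GRM5-AS1 cover 51.77% of the exon bases of GRM5 on the other strand, and GRM5-AS1 had 0 reads.

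Of 8 GABA-A receptor subunits tested for AA147 over RP22, 2 were higher and 3 lower, shares near the 29.8% and 32.2% of all genes tested. Without replicate 1 of RP22, 1 was higher and 3 lower. GABRA5, an alpha subunit known from extrasynaptic receptors of the hippocampus, had 89, 107 and 91 reads with AA147, 6, 16 and 23 with RP22 and 57, 68 and 68 at day 1. AA147 libraries of GABRA5 were above all others and RP22 libraries below all others. The log2 fold change of GABRA5 was 3.16 ± 0.37 (SE, n = 3 each) for AA147 over RP22 (adjusted p = 0.00022, edgeR), an 8.92-fold difference, 1.02 ± 0.19 for AA147 over day 1 (adjusted p = 0.00071) and −2.22 ± 0.38 for RP22 over day 1 (adjusted p = 0.00098), with no call lost in 14 alternatives.

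GABRA3, an alpha subunit, had 9, 6 and 8 reads with AA147, 106, 99 and 121 with RP22 and 68, 41 and 67 at day 1. No groups overlapped, and the log2 fold change was −3.33 ± 0.24 for AA147 over RP22 (adjusted p = 2.3e-05, edgeR), −2.47 ± 0.33 for AA147 over day 1 (adjusted p = 7.6e-05) and 0.77 ± 0.23 for RP22 over day 1 (adjusted p = 0.015). GABRB2, a beta subunit of the adult brain, had 4, 0 and 1 reads with AA147, 41, 30 and 29 with RP22 and 24, 20 and 28 at day 1. It was lower in every AA147 library than in any other, by −3.77 ± 0.65 relative to RP22 (adjusted p = 0.0014, edgeR) and −3.32 ± 0.63 relative to day 1 (adjusted p = 8e-04). These were −5.33 and −4.87 without replicate 1 of AA147, which holds most of its AA147 reads, and −5.11 and −4.89 without replicate 1 of both groups. GABRE, the epsilon subunit, had 11, 3 and 6 reads with AA147, 15, 25 and 31 with RP22 and 32, 22 and 25 at day 1. All AA147 libraries of GABRE were lower, by −1.33 ± 0.48 relative to RP22 (adjusted p = 0.041, edgeR) and −1.52 ± 0.42 relative to day 1 (adjusted p = 0.0081).

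The call on GABRE between AA147 and RP22 was lost with DESeq2 (adjusted p = 0.074) and without replicate 2 (0.13) or 3 (0.13) of AA147 or replicate 2 (0.11) or 3 (0.14) of RP22, over a range of 0.00049 to 0.14, and its log2 fold change was −2.10 without replicate 1 of both groups. GABRR2, a rho subunit of the kind found in retina, had 11, 14 and 13 reads with AA147, 7, 11 and 5 with RP22 and 0, 2 and 2 at day 1. The AA147 libraries were at or above all others, with log2 fold changes of 1.19 ± 0.41 over RP22 (adjusted p = 0.034, edgeR) and 3.56 ± 0.62 over day 1 (adjusted p = 0.00046). The first of these was lost in 7 of 14 alternatives, namely DESeq2 (0.11), library totals alone (0.14), and without replicate 1 (0.055), 2 (0.1) or 3 (0.083) of AA147 or replicate 1 (0.055) or 3 (0.12) of RP22, over a range of 0.029 to 0.14. GABRQ, the theta subunit, had 2, 4 and 0 reads with AA147, 3, 4 and 10 with RP22 and 45, 43 and 41 at day 1. Day 1 libraries of GABRQ were above all others (AA147 over day 1 −3.91 ± 0.53, adjusted p = 9.2e-05, edgeR, and RP22 over day 1 −3.02 ± 0.38, adjusted p = 0.00018). The first was −4.86 without replicate 2 of AA147 and −3.31 without replicate 3, and the second −3.64 without replicate 3 of RP22.

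GABRD, the delta subunit of extrasynaptic receptors, had no read with AA147, 0, 2 and 4 with RP22 and 8, 13 and 25 at day 1, at least 11.3-fold lower with AA147 than at day 1. It passed the count filter in no comparison, and without the filter it was called lower with AA147 than at day 1 (adjusted p = 0.00056, edgeR). GABRA2, an alpha subunit, had 6, 5 and 13 reads with AA147, 13, 7 and 15 with RP22 and 2, 3 and 3 at day 1, and AA147 over RP22 did not pass (log2 fold change −0.07, 95% interval −1.17 to 1.03, adjusted p = 0.91). GABRA4, GABRB1, GABRG1 and GABRR1 had at most 13 reads in any library, and GABRA6 and GABRR3 had none in any.

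GABRA5 and GABRG3 are neighbours on chromosome 15 in RefSeq, and they differed in pattern. GABRG3, a gamma subunit, had 16, 23 and 21 reads with AA147, 15, 38 and 46 with RP22 and 2, 1 and 0 at day 1. AA147 and RP22 overlapped in GABRG3 (log2 fold change −0.23, 95% interval −1.16 to 0.71, adjusted p = 0.65, edgeR), and both were above day 1, with ratios of 27.2 for AA147 (95% counting interval 8.89 to 136, adjusted p = 5.3e-05) and 30.4 for RP22 (10.1 to 150). GABRG3 was thus higher in both day 13 groups than at day 1, while GABRA5 was higher than day 1 with AA147 and lower with RP22. Elsewhere, GABRA3 and GABRQ are neighbours on chromosome X, and they were called in opposite directions for RP22 over day 1. On chromosome 6, GABRR2 had 38 reads over the AA147 libraries and its neighbour GABRR1 had none.

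**Figure D4:**
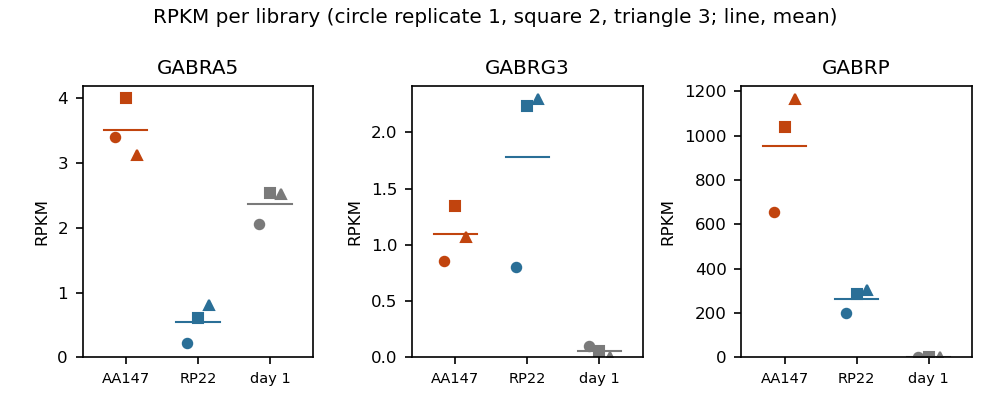
RPKM per library (y axes differ) of the chromosome 15 neighbours GABRA5 and GABRG3 and of GABRP in AA147, RP22 and day 1 cells (points are libraries, lines are means). GABRA5 is highest with AA147, GABRG3 is lowest at day 1, and GABRP reaches 654 to 1165 RPKM with AA147.

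A further GABA-A subunit gene lies outside the symbol rule and was far more abundant than the rest. GABRP, the pi subunit known from epithelia and the reproductive tract, had 19966, 31299 and 38202 reads with AA147, 6235, 8651 and 9946 with RP22 and 42, 20 and 15 at day 1. Its RPKM was 20.5, 37.2 and 47.2 times the summed RPKM of the 46 subunits in AA147 libraries, 3.09, 3.84 and 3.71 times in RP22 libraries, and 0.016, 0.006 and 0.004 times at day 1. The log2 fold change of AA147 over RP22 was 2.33 ± 0.25 (adjusted p = 3e-04, edgeR).

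Of the GABA-B subunits, 1 of 2 differed between AA147 and RP22. GABBR1, which binds GABA, had 438, 342 and 323 reads with AA147, 734, 853 and 1003 with RP22 and 498, 573 and 475 at day 1. RP22 libraries of GABBR1 were above all others, with log2 fold changes of −0.74 ± 0.14 for AA147 over RP22 (adjusted p = 0.0027, edgeR) and 0.62 ± 0.11 for RP22 over day 1 (adjusted p = 0.0011). AA147 over day 1 did not pass (−0.04, 95% interval −0.35 to 0.27, adjusted p = 0.8), save with library totals alone (−0.48, adjusted p = 0.013, range 0.013 to 0.98 over the alternatives). GABBR2, which couples the dimer to G proteins, had 115, 132 and 60 reads with AA147, 130, 155 and 158 with RP22 and 26, 21 and 23 at day 1. AA147 and RP22 overlapped in GABBR2 (−0.03, 95% interval −0.72 to 0.65, adjusted p = 0.93, edgeR) and both were above day 1, by 2.59 ± 0.33 for AA147 (adjusted p = 6.6e-05) and 2.54 ± 0.19 for RP22 (adjusted p = 1e-05). Exons of UBD on the same strand overlap 12.74% of the exon bases of GABBR1, and UBD had 20 reads with AA147, 37 with RP22 and 9 at day 1.

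Scaled to length, the make-up of the transcripts of the 46 subunits differed between groups. GABRP is outside all sums given here, including that of the GABA-A subunits. The 46 subunits summed to 28.1 ± 3.59 RPKM with AA147, 73.4 ± 8.85 with RP22 and 108 ± 9.71 at day 1 (SD, n = 3 each). Among the subunits described here, AA147 cells had 9.04 ± 1.77 RPKM of GABBR1, 3.51 ± 0.45 of GABRA5, 1.88 ± 0.75 of GABBR2 and 1.74 ± 0.15 of GRIN2D, of which GABBR2 and GRIN2D did not differ beyond their spread. RP22 cells had 20.7 ± 2.73 RPKM of GABBR1, 6.07 ± 2.02 of GRIK5, 6.02 ± 3.91 of GRIK2 and 3.14 ± 0.20 of GABRA3, of which GRIK5 and GRIK2 did not differ beyond their spread. Day 1 cells had 18.4 ± 0.46 RPKM of GRIK5, 12.6 ± 1.33 of GABBR1 and 5.42 ± 1.09 of GRM4, each apart from the next by more than their SDs. By class, kainate subunits summed to 0.94 ± 0.28 RPKM with AA147, 14.3 ± 1.60 with RP22 and 20.2 ± 0.78 at day 1, AMPA subunits to 0.66 ± 0.44, 6.06 ± 1.21 and 1.41 ± 0.52 in the same groups, and GABA-A subunits to 12.6 ± 0.97, 16.8 ± 4.11 and 50.9 ± 5.77. GABA-B subunits summed to 10.9 ± 2.30 RPKM with AA147, 23.3 ± 2.95 with RP22 and 13.0 ± 1.29 at day 1, and NMDA subunits to 2.26 ± 0.13, 4.42 ± 0.56 and 2.09 ± 0.84 in that order.

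**Figure D5:**
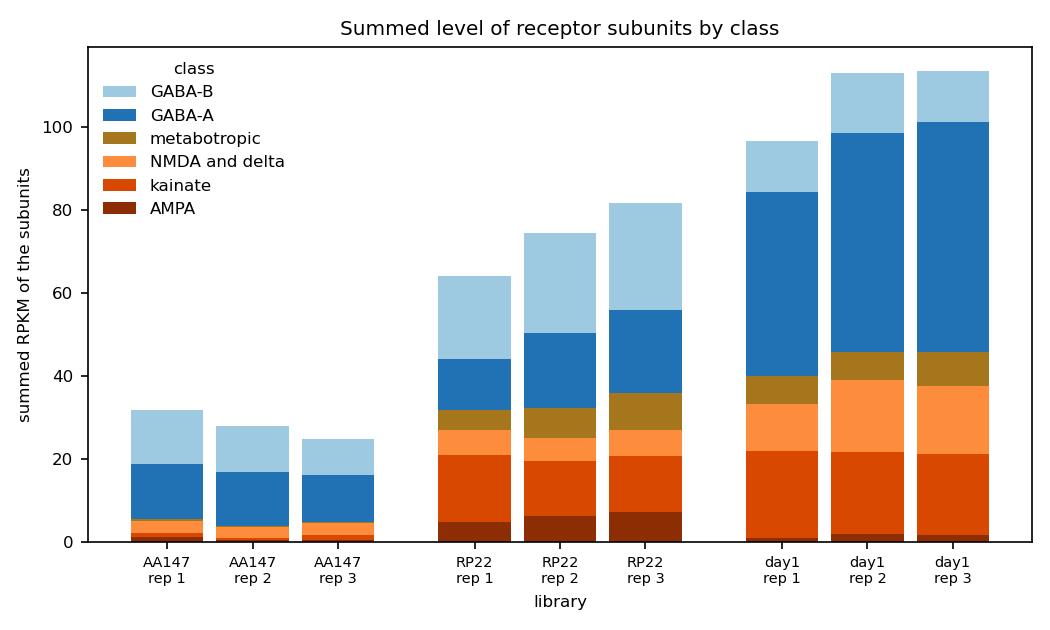
Summed RPKM of the 46 receptor subunits, without GABRP, in each library, stacked by class. The whole bars average 28.1 RPKM with AA147, 73.4 with RP22 and 108 at day 1, and most of each AA147 bar is GABA-A and GABA-B.

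The lists of proteins that work with these receptors are set beside the 29.8% higher and 32.2% lower of all genes tested for AA147 over RP22. Of 25 auxiliary and scaffold genes of glutamate receptors, 21 were tested for AA147 over RP22, and 13 were lower and 3 higher, and the median log2 fold change was −0.64. The most abundant were the scaffold DLG1 (log2 fold change −0.04, adjusted p = 0.72, edgeR), the AMPA receptor auxiliary subunit CACNG4, which was higher with AA147 (0.67, adjusted p = 0.00013), the scaffold DLG3, which was lower (−0.42, adjusted p = 0.016; not called without replicate 2 or 3 of RP22, adjusted p = 0.052 and 0.072, range 0.00052 to 0.072), and HOMER1, which links metabotropic receptors to the scaffold (−0.13, adjusted p = 0.28). Of 9 genes for anchoring or auxiliary proteins of GABA receptors, 8 were tested, 2 were higher and 5 lower, with a median of −0.93. CLPTM1, which acts in receptor trafficking, was higher with AA147 (0.71, adjusted p = 0.00043, edgeR), and NLGN2, an adhesion protein of inhibitory synapses, was lower (−2.03, adjusted p = 0.0012). GABARAP, another trafficking gene, had a log2 fold change of 0.17 (adjusted p = 0.04), and its direction depended on the scaling. It had 135.3 to 141.3 CPM with AA147 and 166.1 to 170.1 CPM with RP22, and with library totals alone it was called lower (−0.285, adjusted p = 0.0032). The call was also lost with DESeq2 (0.058), with its size factors (0.053), and without replicate 2 (0.094) or 3 (0.095) of AA147 or replicate 2 (0.099) or 3 (0.11) of RP22, over a range of 0.0032 to 0.11. KCTD12, an auxiliary subunit of GABA-B receptors, did not pass (0.15, adjusted p = 0.8), with 2299 reads in replicate 1 of RP22 and 871 and 845 in the others. Without that library it was called higher with AA147 (0.86, adjusted p = 0.0013, range 1.4e-07 to 0.98), and without replicate 1 of both groups it was 0.71.

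Of 16 genes of GABA and glutamate synthesis and transport, 10 were tested, 3 were higher and 7 lower with AA147 than with RP22, and their median log2 fold change was −2.03. SLC1A3, which takes up glutamate, was higher (1.70, adjusted p = 0.00011, edgeR), and glutamine synthetase GLUL and the GABA transaminase ABAT were lower (−0.9998, adjusted p = 0.00014, and −1.58, adjusted p = 0.0038). The chloride cotransporters SLC12A2 and SLC12A5, which set whether GABA excites or inhibits, did not pass the test (−0.21, adjusted p = 0.19, and 0.05, adjusted p = 0.9, edgeR). With library totals alone SLC12A2 was called lower (−0.66, adjusted p = 0.0014, range 0.0014 to 0.63). GLRB, the beta subunit of glycine receptors, was lower with AA147 (−0.99, adjusted p = 0.013), though not called without replicate 3 of RP22 (0.053, range 5.1e-05 to 0.053). REST itself had 929, 882 and 894 reads with AA147, 1120, 1078 and 1259 with RP22 and 1526, 1061 and 1098 at day 1, and AA147 over RP22 did not pass (0.13, adjusted p = 0.14, edgeR). Of 6 genes of the list of REST and its repressor complex, 3 were lower and 1 higher with AA147, against 62.0% of all genes called in either direction. The lower ones were KDM1A (−0.58, adjusted p = 4e-04), SIN3A (−0.55, adjusted p = 0.00051) and RCOR2, and the higher one RCOR1 (0.50, adjusted p = 0.0017). RCOR2, a corepressor named after its values were seen, had 41, 35 and 36 reads with AA147, 333, 781 and 872 with RP22 and 901, 881 and 1078 at day 1, and AA147 over RP22 was −3.65 ± 0.41 (adjusted p = 0.00054, edgeR). With library totals alone, REST (−0.33, adjusted p = 0.0044, range 0.0044 to 0.29), DLG1 (−0.49, 0.00079, range 0.00079 to 0.87) and HOMER1 (−0.59, 0.0013, range 0.0013 to 0.71) were called lower and RCOR1 was not called (0.04, 0.64, range 8.3e-07 to 0.64).

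Against day 1, the shares of all genes tested were 38.7% higher and 40.4% lower with AA147, and 36.6% and 35.2% with RP22. With AA147, 7 of 21 glutamate receptor partners were higher and 12 lower, as were 3 and 5 of 8 GABA receptor partners, and 3 and 3 of 8 synthesis and transport genes. With RP22, 9 of 21 glutamate receptor partners were higher and 8 lower, 3 and 4 of 9 GABA receptor partners, and 8 of 10 synthesis and transport genes were higher and none lower. Both chloride cotransporters, GABRP and GLRB were higher than day 1 in both day 13 groups. Neuron markers were higher than at day 1 in 10 of 10 tested with RP22, and in 2 of 7 tested with AA147, where 1 was lower.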

How the data were processed

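RNA sequencing of 9 libraries was used, 3 for each of AA147 at day 13, RP22 at day 13 and untreated day 1. For each library the authors deposited expected counts and RPKM, the second scaled to gene length and depth. Per the submitters' processing notes the build was GRCh37.p13. Which aligner and counter were used is not given in the sources used here. Reads of the mouse feeder cells cannot be separated. Of the deposited expected counts, 41.43% held a floor of 0.05, read as 0 (0.002 in the RPKM values), and 0.9142% held fractions, which were rounded; no value of a receptor gene was a fraction. The 42 symbols on 2 rows were summed. Names and neighbours of genes, and the promoter windows, come from RefSeq on GRCh38.p14, matched by symbol (50 of 50), and exon overlaps from GENCODE on GRCh38; no position was carried between builds.

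The comparisons (AA147 with RP22, AA147 with day 1, RP22 with day 1) were fitted separately, on 6 libraries each, in R 4.3.3 with edgeR 4.0.16, using filterByExpr, TMM and the robust quasi-likelihood F test, group as the only term, and Benjamini-Hochberg adjustment over all genes tested (threshold 0.05). The biological coefficient of variation was 15.4%, 12.3% and 15.6% in these comparisons. SE is the absolute log2 fold change divided by the square root of F. Where a group had no read, folds are bounds from a floor of 3 reads over its 3 libraries, and where it had 1 to 3 reads, the ratio of CPM is given with a 95% exact interval in place of the fitted fold change; both cover counting error only. Length-scaled levels are the authors' RPKM. Alternatives were DESeq2 1.42.0, limma-voom (limma 3.58.1), DESeq2 size factors, library totals alone, all genes without the count filter, one model of all 9 libraries, the replicate number as a block, and leaving out each library or replicate 1 of both groups. The scripts were tested on simulated data.

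The receptor genes and all gene lists were chosen with earlier results of these data known. Results for some of these genes are not reported here, though counts and sums over lists include them. Of the others, genes with a mean of at least 1 CPM in a group are given in every library, the others by range. Full statistics go to those past the test for AA147 with RP22 with groups that do not overlap, and up to 4 genes of a pathway list are named by mean CPM; other genes named were chosen after their values were seen. P-values rest on the labels' statement that replicates are independent experiments. Replicates were not treated as paired in the main fits.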

Additional observations from a re-analysis of the deposited data

How the results depend on the processing

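Counts of called subunits stayed within 1.5-fold of the reported ones under every alternative run. For AA147 with RP22 they ranged from 2 to 3 higher and from 16 to 23 lower, for AA147 with day 1 from 5 to 7 higher and from 12 to 19 lower, and for RP22 with day 1 from 14 to 17 higher and from 6 to 10 lower. Of 57 calls on the genes described, 49 were kept under all alternatives, 8 were lost under at least 1 (given above for GABRE, GABRR2, GRIA3, GRIA4, GRIN2A, GRIN3B and GRIK4), and none changed sign. The cause was not tested.

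Sign changes were seen in 7 results that were not called. For AA147 with RP22, a model of all 9 libraries gave log2 fold changes of 0.0463 for GABBR2 and 0.0116 for GABRA2, and library totals alone gave −0.38 for GRIN2D. On leaving out libraries, log2 fold changes of AA147 over RP22 ranged from −0.277 to 0.27 for GABBR2, from −0.548 to 0.222 for GABRA2 and from −0.534 to 0.0499 for GABRG3. Those of GABBR1 for AA147 over day 1 ranged from −0.228 to 0.0864, and those for RP22 over day 1 from −0.351 to 0.221 for GRM8 and from −0.459 to 0.0688 for GABRE.

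Same-numbered replicates did not deviate together in every pair (correlations of −0.0546 to 0.191 over 14673 genes). For AA147 with RP22 they were 0.191, 0.153 and 0.0633, and different numbers gave −0.197 to 0.109. The labels do not say whether a number marks the same experiment in each group, so whether the samples are paired is not known. With a replicate block, 3 subunits were higher and 18 lower for AA147 with RP22, 6 and 13 for AA147 with day 1, and 14 and 7 for RP22 with day 1. Under the block GABRE was not called for AA147 with RP22 (adjusted p = 0.07, range 0.00049 to 0.14 over the alternatives), GRIA4 was not called for AA147 with day 1 (0.051, range 0.0048 to 0.26), GRIN2D was called for AA147 with day 1 (0.029, range 0.029 to 0.42), and GABARAP was not called for AA147 with RP22 (0.084, range 0.0032 to 0.11). Replicates did not all correlate best with their own number: replicate 3 of AA147 had a correlation of 0.109 with replicate 2 of RP22 and 0.0633 with replicate 3. The count filter was passed in no comparison by 16 subunits, and whether depth or lack of expression keeps them low was not tested.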
